A study of Mus musculus with 12 samples.

Results

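The genes described here encode the nuclear subunits of respiratory chain complexes II, III and IV and of ATP synthase (complex V), together with cytochrome c. They were taken by gene symbol from the normalised table of 47730 features: Sdha to Sdhd, every symbol starting with Uqcr, Cyc1, Cycs, Cyct, symbols starting with Cox4 to Cox8, and symbols starting with Atp5. Of 57 rows with such a symbol, the 6 marked as pseudogenes by -ps were left out, so 51 members remained. These were 4 members of complex II, 9 of complex III, 2 cytochrome c genes, 19 of complex IV and 17 of complex V. By the gene annotation, Cox6c2 among them is a processed pseudogene. Atp5s is annotated as protein coding, and is known to encode a factor that is not a structural subunit of the synthase. The highest normalised count of Cox6c2 in any library was 2.07, so it was not tested.

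The study compared mice with a mutant Bckdk allele (BckdkM/M, marked KO in the sample titles) with Bckdk+/+ mice. Bckdk encodes the kinase that phosphorylates and inhibits the branched-chain ketoacid dehydrogenase, which controls the breakdown of leucine, isoleucine and valine. All mice were freely fed males of 5 to 6 months, from a line crossed back to C57BL/6J over 10 or more generations. RNA-seq of poly(A)-selected RNA was done on 12 libraries in 4 groups of 3: BckdkM/M skeletal muscle, Bckdk+/+ skeletal muscle, BckdkM/M testis and Bckdk+/+ testis. Muscle was gastrocnemius and plantaris together, and both tissues were collected between ZT6 and ZT7 (zeitgeber time, hours after lights on). The libraries came from 7 mice, called here D to G (mutant) and A to C (wild type). Muscle came from mutants D, F and G and testis from mutants D, E and F, so 5 mice gave both tissues. Each library is a whole-tissue extract, in which fewer cells of a type and less RNA per cell cannot be told apart.

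Complex II (succinate dehydrogenase) and complex III (the cytochrome bc1 complex) pass electrons through ubiquinone to cytochrome c, complex IV (cytochrome c oxidase) passes them on to oxygen, and ATP synthase uses the proton gradient that the chain builds. Except in complex II, some subunits of each complex are encoded in mitochondrial DNA, and the nuclear subunits described here are made in the cytosol and imported. Several complex IV subunits have paralogs with a tissue bias. In the mouse, Cox6a2, Cox7a1 and Cox8b are known as the heart and skeletal muscle isoforms, while Cox6b2, Cox7b2, Cox8c and the cytochrome c Cyct are known from male germ cells. ATP synthase subunit c, which forms the rotating ring, is made from Atp5g1, Atp5g2 and Atp5g3, whose mature proteins are the same.

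The somatic and the testis cytochrome c are shown first, because the change of cytochrome c isoform between the tissues rests on reads from these genes being told apart. Cyct lies at chr2:76353942-76360450 and Cycs at chr6:50562563-50566538, both on the minus strand of GRCm38. Their coding sequences have the same length of 315 bases, of which 75 differ, an identity of 76.2%. The first 120 coding bases are printed below in lower case with the 23 bases that differ in capitals (GENCODE M21 transcripts).
Cyct: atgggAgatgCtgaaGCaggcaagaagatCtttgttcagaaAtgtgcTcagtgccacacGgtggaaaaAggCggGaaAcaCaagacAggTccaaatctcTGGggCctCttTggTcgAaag
Cycs: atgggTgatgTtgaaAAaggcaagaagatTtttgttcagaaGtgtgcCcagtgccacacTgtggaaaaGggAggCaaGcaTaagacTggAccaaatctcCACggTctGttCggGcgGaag
The differences are spread along the stretch. Across the other paralog pairs of the 8 families, coding identity ran from 49.8% for Cox8a and Cox8c to 72.1% for Atp5g1 and Atp5g2.

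Promoter stretches are shown for the tissue isoforms that had an entry in RefSeq (GRCm38.p6), with Cycs beside them because it is the broadly used counterpart of Cyct. Each is the 100 bases before the annotated start, and capitals mark a match to a motif searched.
Cox7a1, chr7:30184071-30184170, plus strand: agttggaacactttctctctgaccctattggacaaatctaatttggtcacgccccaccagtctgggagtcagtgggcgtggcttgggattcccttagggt
Cox8b, chr7:140900447-140900546, minus strand: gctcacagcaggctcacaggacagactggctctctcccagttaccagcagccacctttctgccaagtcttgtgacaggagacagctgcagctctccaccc
Cyct, chr2:76360454-76360553, minus strand: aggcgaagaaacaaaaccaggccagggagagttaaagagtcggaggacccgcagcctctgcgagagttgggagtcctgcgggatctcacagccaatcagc
Cox6b2, chr7:4753095-4753194, minus strand: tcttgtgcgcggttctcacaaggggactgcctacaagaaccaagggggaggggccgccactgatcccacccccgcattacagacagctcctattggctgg
Cox7b2, chr5:71548206-71548305, minus strand: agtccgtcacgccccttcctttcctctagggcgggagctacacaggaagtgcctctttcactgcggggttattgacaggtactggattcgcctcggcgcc
Cycs, chr6:50566570-50566669, minus strand: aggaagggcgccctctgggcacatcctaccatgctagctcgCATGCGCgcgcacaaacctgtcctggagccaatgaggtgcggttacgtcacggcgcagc
The motifs searched on both strands, from 250 bases before to 50 after the start, were GCGCANG (the core of the NRF1 site), CCGGAAG (ETS factors such as GABP) and AAGATGG (YY1), and no motif contains another. Of the 51 members, 36 had an entry. GCGCANG was present in 18 of the 36 (50%), against 18.5% of 27025 genes with an entry, and CCGGAAG in 12 (33.3%), against 9.93%. AAGATGG was present in 3 (8.33%), against 7.28%. The 5 tissue isoforms with an entry held none of the 3 motifs in this window, and the matches lay in the other 31 members. A match is a run of letters and not a measured binding site.

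Between 12852427 and 15795722 reads per library were assigned to features. Bckdk had 14.8, 14.3 and 12.4 normalised counts in muscle of mutants D, F and G, against 2214, 2420.6 and 2627 in wild-type muscle, a log2 change of -7.35 (limma, Benjamini-Hochberg adjusted p = 1.66e-09). In testis the gene went against the label: it had 138, 119 and 114 normalised counts in the libraries labelled mutant, against 68.0, 73.3 and 71.0 in wild type (log2 change 0.79, adjusted p = 0.349). These 3 are therefore called testis labelled mutant throughout. A row named NeoR held 208 to 266 normalised counts in mutant muscle and 13.1 to 19.9 in testis labelled mutant, against 2.3 to 3.9 in wild-type muscle and 1.8 to 3.3 in wild-type testis. The tissue labels held: elongating spermatid markers in the muscle libraries stood at a median of 0.328 to 1.42% of their testis level, and fast-fibre markers in the testis libraries at 0.0114 to 0.700% of their muscle level. Pancreatic islet markers were detected in every library of both tissues and were highest in muscle of mutants F and G and in testis of wild types A and B. Counts are less certain for some members: 12 share exon sequence with another gene, 1 of them (Atp5g2, with Mir688) on the same strand, and 17 have near-identical copies elsewhere in the annotation. The copies held more than 1% of the member's own count for Uqcr10, Atp5l, Cycs, Atp5g2, Cox7c and Uqcr11. The 3 libraries of a group came from different mice, so p-values rest on the spread between libraries within the groups compared. The labels do not say that the samples of a group were prepared on separate occasions.

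Muscle held far more RNA of most of these subunits than testis in both genotypes. The members called lower in muscle were the 4 testis isoforms and Atp5s, Cox6a1 was called in neither pair, and Cox4i2 was not called in the wild-type pair. Between mutant muscle and testis labelled mutant, 49 of the 50 members tested were called (limma on log2(normalised count + 1), adjusted p below 0.05), 44 higher and 5 lower in muscle. Of all 20021 genes tested, 85.9% were called, 36.3% higher and 49.7% lower. Between wild-type muscle and wild-type testis, 48 of 50 members were called, 43 higher and 5 lower, where 87.9% of all 19974 genes were called, 37.3% higher and 50.6% lower. Calls of 4-fold or more numbered 38 higher and 4 lower in each pair. The background for such calls was 18.9% higher and 34.3% lower in the mutant pair, and 18.6% higher and 34.3% lower in the wild-type pair. Of the 4 lower members, 3 in the mutant pair and 2 in the wild-type pair passed the filter on low values only through testis. Their lower calls were therefore bound to appear. The median member was 2.64 higher on the log2 scale in mutant muscle and 2.69 higher in wild-type muscle than in testis, where the median of all genes was -0.48 in each pair. The median of all genes depends on the scaling and on which genes pass the filter. In the wild-type pair it lay at -0.28 under TMM scaling, at -0.65 without muscle of mouse A and at 0.18 without testis of mouse A. The median member of that pair lay between 2.62 and 2.76 with 1 library left out. The same 48 members were called in both pairs, all in the same direction.

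**Figure D1:**
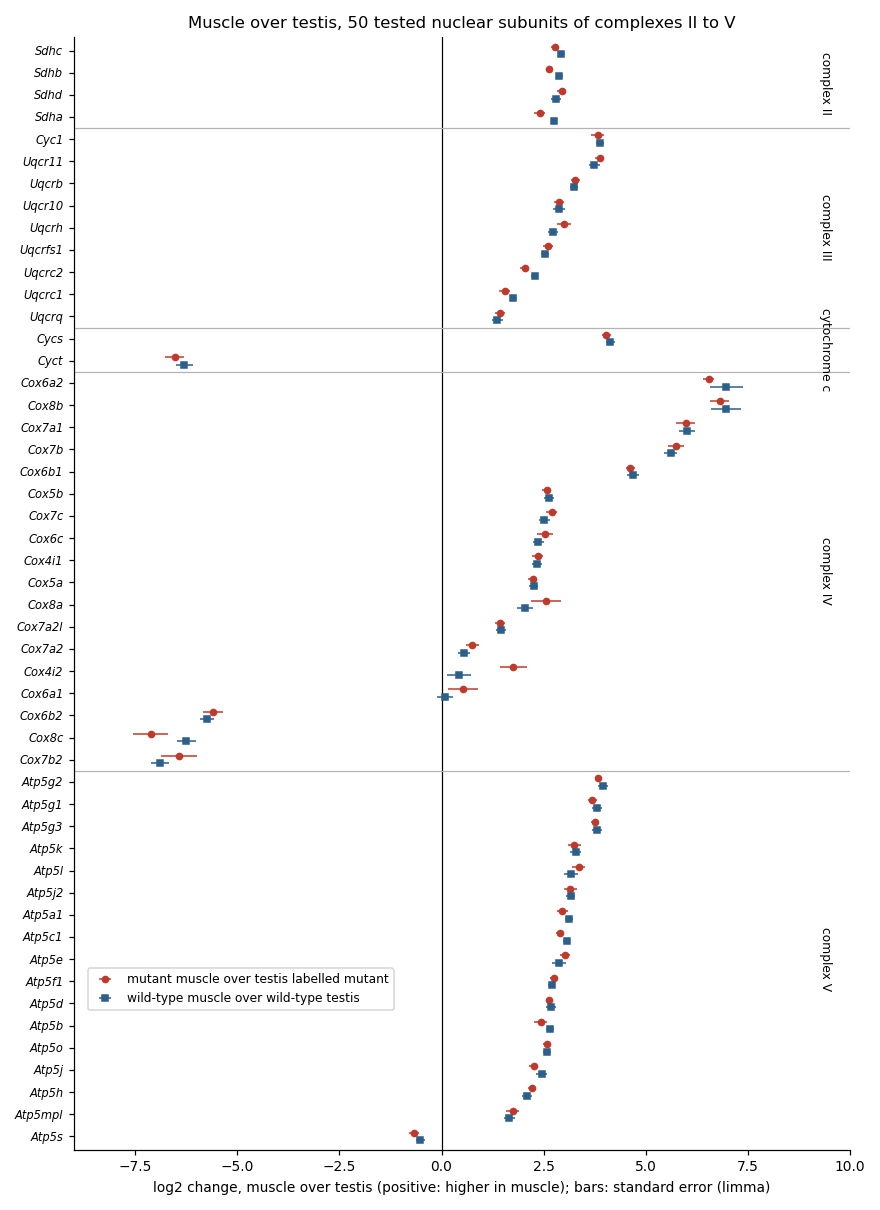
Log2 change between muscle and testis (x axis, positive values higher in muscle, bars are limma standard errors) for the 50 tested members in rows, grouped by complex, with circles for mutant muscle over testis labelled mutant and squares for wild-type muscle over wild-type testis. Most members lie between 1.37 and 4.14, Cox6a2, Cox8b, Cox7a1 and Cox7b lie above 5, and Cyct, Cox6b2, Cox8c and Cox7b2 lie below -5.

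The 30 subunits that are encoded by a gene without a paralog among the members were all called higher in muscle. They were 2.70- to 14.7-fold higher in the mutant pair, with a median of 6.37-fold, and 2.58- to 14.7-fold higher in the wild-type pair, with a median of 6.57-fold. Complex II subunits moved within a narrow band, from 2.41 to 2.94 on the log2 scale in the mutant pair and from 2.75 to 2.93 in the wild-type pair. Sdha, the flavoprotein that oxidises succinate, had 14128, 11067 and 10989 normalised counts in mutant muscle and 2234, 2313 and 2231 in testis labelled mutant. It had 13802, 15029.7 and 13591 in wild-type muscle, against 2033, 2081 and 2174 in wild-type testis. The ranges of the tissues were far apart in both genotypes.

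Complex III spanned a wider range. Cyc1, the cytochrome c1 that hands electrons to cytochrome c, had 5322, 4297 and 4598 normalised counts in mutant muscle and 287, 421 and 302 in testis labelled mutant (log2 change 3.83 ± 0.163, SE). It had 4184, 4594 and 5019.8 in wild-type muscle, against 334, 288 and 311 in wild-type testis (3.88 ± 0.0935). At the other end stood Uqcrq, a small subunit next to cytochrome b. Uqcrq had 4630.1, 4632 and 5891 in mutant muscle and 2008, 1813 and 1759 in testis labelled mutant (1.43 ± 0.127), and 3391, 4023 and 4995 in wild-type muscle, against 1626, 1584 and 1540.0 in wild-type testis (1.37 ± 0.133). The core proteins Uqcrc1 and Uqcrc2, the Rieske iron-sulphur protein Uqcrfs1, and Uqcrb, Uqcrh, Uqcr10 and Uqcr11 lay between these in the wild-type pair. Near-identical copies limit 1 of these values: 4930481A15Rik, which matches Uqcr10 over at least 150 bases at 95% identity or more, held 15.0% of the Uqcr10 count in muscle and 31.5% in testis.

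In ATP synthase, 16 of 17 members were called higher in muscle in each pair. Atp5b, the catalytic beta subunit, had 39675, 31978 and 32663 normalised counts in mutant muscle and 6356, 6755 and 6209 in testis labelled mutant. It had 36364, 38896 and 39502 in wild-type muscle, against 6201, 5985 and 6063 in wild-type testis. The subunit c genes had the largest changes in the complex in both pairs, all called: in the mutant pair Atp5g2 was higher by 3.85, Atp5g3 by 3.76 and Atp5g1 by 3.69 on the log2 scale, and in the wild-type pair by 3.95, 3.81 and 3.82. Their proportions differed little between the tissues. Per exon length, Atp5g3 made up 53.2% ± 2.26 of the family in mutant muscle, 50.9% ± 1.01 in wild-type muscle, 53.5% ± 0.936 in testis labelled mutant and 52.4% ± 2.44 in wild-type testis (SD, n = 3 each). The exception was Atp5s, which had 260.0, 215 and 216 normalised counts in mutant muscle, against 355, 368 and 375 in testis labelled mutant, and 244, 206 and 248 in wild-type muscle, against 327, 338 and 329 in wild-type testis. Its log2 change was -0.67 ± 0.125 in the mutant pair (limma, adjusted p = 0.00118) and -0.51 ± 0.108 in the wild-type pair (adjusted p = 0.00201). Both lay close to the median of all genes in these fits, -0.48 in each pair. That median was 0.18 in the wild-type pair without testis of mouse A. With 1 library left out, the wild-type change of Atp5s ran from -0.56 to -0.43. Leaving out the islet-rich libraries of the wild-type pair, testis of A and B, kept testis of C alone. The log2 change of Atp5s was then -0.51.

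Cytochrome c changed its isoform between the tissues. Cycs, the somatic form, had 9037, 7772 and 9731 normalised counts in mutant muscle and 526, 562 and 524 in testis labelled mutant. It had 7441, 8029 and 9391 in wild-type muscle, against 507, 425 and 474 in wild-type testis, and was higher in muscle by 4.03 ± 0.11 in the mutant pair and 4.14 ± 0.108 in the wild-type pair (SE, both called). Cyct, the testis form, had 7.98, 5.09 and 8.29 in mutant muscle and 779, 690.1 and 758 in testis labelled mutant, and 5.69, 8.66 and 8.99 in wild-type muscle, against 662, 682 and 693 in wild-type testis. Cyct passed the filter on low values only through testis, so a difference was bound to appear, and its fitted log2 changes were -6.54 and -6.30. Divided by exon length, Cyct made up 0.412% ± 0.0637 of cytochrome c RNA in mutant muscle and 0.483% ± 0.0813 in wild-type muscle. In testis it made up 87.7% ± 1.11 in the libraries labelled mutant and 88.3% ± 1.08 in wild type. The share rests on length: without dividing by it, Cyct held 59.2% in wild-type testis, where the annotated exons span 3404 bases for Cycs and 655 for Cyct.

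The 3 muscle isoforms of complex IV had the largest rises of all members. Cox6a2 had 9123, 8812 and 7631 normalised counts in mutant muscle and 79.7, 89.5 and 103 in testis labelled mutant, and 7239.5, 7944 and 10314 in wild-type muscle, against 76.8, 31.7 and 116 in wild-type testis. Cox8b had 5044, 4827 and 7143 in mutant muscle and 45.4, 38.1 and 66.6 in testis labelled mutant, and 4393, 4105 and 5637 in wild-type muscle, against 49.4, 18.3 and 52.6 in wild-type testis. Cox7a1 had 3749.7, 3906 and 4224 in mutant muscle and 54.4, 46.4 and 91.5 in testis labelled mutant, and 2872, 3374 and 4357 in wild-type muscle, against 59.1, 40.0 and 62.6 in wild-type testis. All 3 were called in both pairs, with log2 changes of 6.54 for Cox6a2, 6.81 for Cox8b and 5.99 for Cox7a1 in the mutant pair, and 6.98, 6.96 and 6.01 in the wild-type pair. In testis, the wild type B library had the lowest value of each. The exons of Cox6a2 overlap those of Itgad on the other strand, and whether the authors counted by strand is not given in the sources used here.

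Cox7b and Cox6b1, which are not usually counted among the muscle isoforms, followed them closely. Cox7b, a small subunit encoded on the X chromosome, had 4524, 4715 and 6561 normalised counts in mutant muscle and 106, 75.4 and 113 in testis labelled mutant (log2 change 5.73 ± 0.198). It had 3180.4, 3664 and 4958 in wild-type muscle, against 75.9, 74.1 and 83.5 in wild-type testis (5.62 ± 0.157). Cox6b1, a subunit on the intermembrane side, was 4.62 ± 0.112 higher in the mutant pair and 4.69 ± 0.15 higher in the wild-type pair. These are the genes whose paralogs are the testis forms Cox7b2 and Cox6b2, and each exceeded the highest fold among the 30 subunits without a paralog.

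The testis forms ran the other way. Cox8c had 35.4, 9.17 and 13.5 normalised counts in mutant muscle and 2776, 2135 and 2439 in testis labelled mutant, and 29.6, 19.5 and 38.5 in wild-type muscle, against 2122, 2425 and 2107 in wild-type testis. Cox6b2 had 46.8, 27.5 and 46.6 in mutant muscle and 1667, 2452 and 1786 in testis labelled mutant, and 30.7, 30.3 and 46.2 in wild-type muscle, against 2129, 1866 and 1791 in wild-type testis. Cox7b2 had 30.8, 7.13 and 13.5 in mutant muscle and 1324, 1452 and 1253 in testis labelled mutant, and 12.5, 6.49 and 10.3 in wild-type muscle, against 1247, 1219 and 1254 in wild-type testis. Their fitted log2 changes were -7.12, -5.59 and -6.43 in the mutant pair and -6.25, -5.74 and -6.89 in the wild-type pair. Cox7b2 in both pairs and Cox8c in the mutant pair passed the filter only through testis.

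Shares within each paralog family, computed from values divided by exon length, showed 4 families that change to a testis form and 2 that change to the broadly expressed form. Cox7b made up 99.2% ± 0.640 of its family in mutant muscle and 99.4% ± 0.259 in wild-type muscle, against 3.19% ± 0.828 in testis labelled mutant and 2.73% ± 0.141 in wild-type testis. Cox8b made up 91.1% ± 2.67 and 92.2% ± 2.36 of the Cox8 family in mutant and wild-type muscle, and Cox8c made up 93.3% ± 0.0493 and 93.2% ± 0.720 of it in testis labelled mutant and wild type. The broadly expressed Cox8a therefore held a minor share of its family in either tissue, 8.67% ± 2.81 and 7.34% ± 2.38 in mutant and wild-type muscle and 4.28% ± 0.683 and 4.63% ± 0.566 in testis labelled mutant and wild type. The Cox6b family gave 99.5% ± 0.129 and 99.5% ± 0.0357 to Cox6b1 in mutant and wild-type muscle, and 85.9% ± 3.02 and 88.0% ± 1.56 to Cox6b2 in testis labelled mutant and wild type. In the Cox7a family, Cox7a1 held 67.2% ± 3.05 and 68.5% ± 1.255 in mutant and wild-type muscle, while Cox7a2 held 73.4% ± 2.85 and 72.1% ± 0.8 in testis labelled mutant and wild type. As in the Cox7a family, the form that dominated the Cox6a family in testis was the broadly expressed one, Cox6a1, at 90.6% ± 2.26 and 91.5% ± 4.25. Cox4i1 held 98.0% or more of its family in each of the 4 groups (all SD, n = 3).

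**Figure D2:**
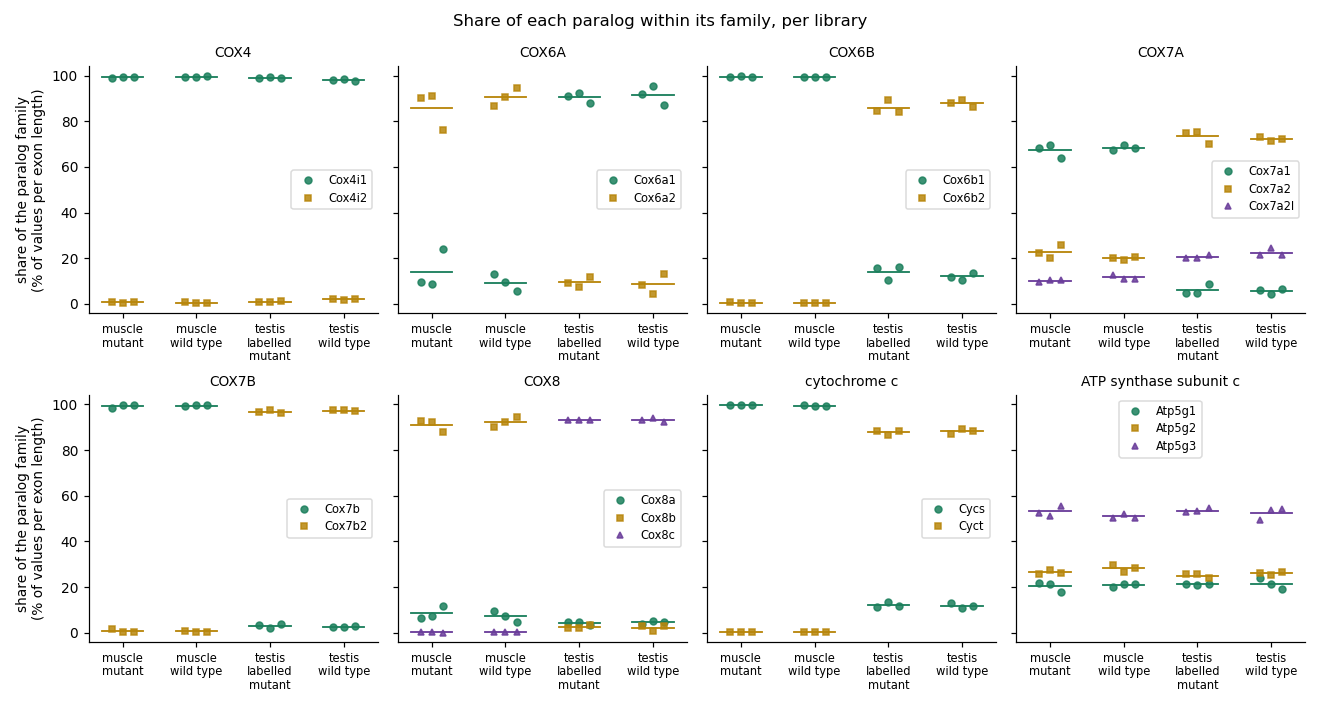
Share of each paralog in its family (y axis, percent, from normalised values divided by exon length) in each of the 12 libraries, by group on the x axis, with points for libraries and lines for group means. Cox6b, Cox7b, Cox8 and cytochrome c change to their testis form in testis, Cox6a and Cox7a to the broadly expressed form, and Cox4 and ATP synthase subunit c keep their proportions.

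Cox6a1 and Cox4i2 were the members that did not follow the rest. Cox6a1 had 1005, 890.3 and 2471 normalised counts in mutant muscle and 838, 1142 and 787 in testis labelled mutant, and 1135, 850.5 and 623 in wild-type muscle, against 897, 698 and 806 in wild-type testis. The tissues overlapped in both genotypes, with log2 changes of 0.52 (95% interval -0.34 to 1.37, limma, adjusted p = 0.217) in the mutant pair and 0.08 (-0.39 to 0.56, adjusted p = 0.707) in the wild-type pair. Its direction in the wild-type pair turned to -0.13 without muscle of mouse A and to -0.011 without testis of mouse B. Cox4i2, a form of subunit 4 known from lung and from vessel-associated cells, was called higher in the mutant pair (1.76, adjusted p = 0.00129) and not called in the wild-type pair (0.42, 95% interval -0.26 to 1.11, adjusted p = 0.205). Cox7a2, the broadly expressed form, was 0.76 higher in the mutant pair (adjusted p = 0.00247) and 0.55 higher in the wild-type pair (adjusted p = 0.00764). Without the islet-rich libraries, which kept testis of wild type C alone, the wild-type change of Cox7a2 was 0.52.

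Per kilobase of exon, the order of the members differed between the tissues. This order rests on the length of all annotated exons, and another length can give another order. The annotated exons span 4237 bases for Atp5b and 1550 for Cox4i1, where their principal transcripts have 1916 and 755. An order by principal transcript is not given here. Cox8b led in mutant muscle at 15754 normalised counts per kilobase, followed by Cox6a2 at 12532 and Atp5a1, the alpha subunit of ATP synthase, at 8679. Wild-type muscle gave the same 3 genes in the same order, at 13088, 12499 and 9107. Testis was led by Cox8c, Cox7b2 and Cox6b2, at 5349, 2478 and 1776 in the libraries labelled mutant and at 4843, 2287 and 1741 in wild type.

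The isoforms of the other tissue were present at a low level. In muscle of mutants D, F and G, the 4 testis isoforms together stood at 1.95, 0.634 and 1.10% of their mean testis level (medians over the 4 genes), against 1.12, 1.03 and 1.46% in wild types A, B and C. The 9 elongating spermatid markers stood at 1.42, 0.505 and 0.328% in the same mutant muscles, against 1.13, 1.02 and 1.27% in the wild types, and none of the 9 was at 0 in any muscle library. By the ratio of isoforms to markers, the 2 measures were nearest each other in the wild types. The ratio was highest in mutant G, where Cox6b2 stood at 2.39%. In testis labelled mutant D, E and F, the 3 muscle isoforms stood at 0.936, 1.05 and 1.28% of their mean muscle level, against 0.952, 0.372 and 1.36% in wild types A, B and C. The 13 fast-fibre markers stood at 0.677, 0.602 and 0.617% in the libraries labelled mutant, against 0.287, 0.0114 and 0.700% in the wild types. The wild type B library was lowest on both measures, with Tnni2 at 0, and there the ratio of the muscle isoforms to the fast-fibre markers was the highest. How much of either level comes from carried-over RNA was not tested.

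The genes around the members moved with them between the tissues to differing degrees. Of all genes tested, 36.3% were called higher in muscle and 49.7% lower in the mutant pair, against 37.3% and 50.6% in the wild-type pair. Of the 39 nuclear complex I subunits tested, 37 were called higher and 2 lower in each pair, with medians of 2.40 in both. All 13 mitochondrially encoded subunits were called higher in both pairs. Their medians of 4.22 in the mutant pair and 4.25 in the wild-type pair lay above the median of the nuclear members. Of 36 assembly factors of complexes II to V, 31 were called higher and 1 lower in the mutant pair. In the wild-type pair 30 were called higher and 2 lower. Without regard to calls, 33 lay above 0 in each pair, with medians of 1.58 and 1.66. Cox14 and Coa3, which act early in the making of the catalytic core of complex IV, were higher by 3.75 and 2.43 in the mutant pair. Of 20 regulators of mitochondrial gene expression, 12 were called higher and 5 lower in the mutant pair. In the wild-type pair 14 were called higher and 4 lower, and 14 lay above 0 in each pair. Ppargc1a, a coactivator of mitochondrial gene expression, was 3.39 higher in mutant muscle than in testis labelled mutant, and Tfb1m, a mitochondrial rRNA methyltransferase, was 2.65 lower (log2 change -2.65).

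The genotype comparison in muscle asked whether loss of Bckdk RNA went with a change of these subunits, and no member was called. Of 49 members tested (all but Cox6c2 and Cyct), 0 passed an adjusted p of 0.05 by limma, where 0.0369% of all 16246 genes did. At an unadjusted p below 0.05 there were 2 members, Cox7c and Uqcrh, against 9.52% of all genes. On the recovered reads edgeR called 0 members. At an unadjusted p below 0.05 it had 4 members, and 1418 of all 16246 genes. DESeq2 called 0 members as well, with 10 members and 1333 of all 16246 genes at that p. Of the 49, 39 lay above 0 with a median log2 change of 0.17, against 44.5% of all genes above 0 and a median of -0.04. Per complex, 1 of 4 members of complex II, 7 of 9 of complex III, 17 of 18 of complex IV and 13 of 17 of complex V lay above 0, with medians of -0.03, 0.23, 0.23 and 0.15.

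The members with the smallest p in their complexes show the size of these differences. Cox7c, a small membrane subunit of complex IV, had 5209, 5215 and 6853 normalised counts in mutant muscle, against 3554, 4231 and 5198 in wild-type muscle. It was the sole member whose groups did not overlap (5.11% of all genes did so in this direction), and its mutant D and wild type C libraries were almost level. Its log2 change was 0.42 ± 0.178 (SE, limma, adjusted p = 0.519). Uqcrh, the hinge protein between cytochromes c1 and c, had 3327, 3765 and 5092 in mutant muscle, against 2627, 2885 and 3518 in wild-type muscle (0.42 ± 0.181, adjusted p = 0.519). Atp5e, the epsilon subunit of the ATP synthase stalk, had 5625, 5933 and 7063 in mutant muscle, against 4002, 4403 and 6579.6 in wild-type muscle (0.34 ± 0.195, adjusted p = 0.562). In each of these the G library was the highest mutant, the C library the highest wild type, and the groups of Uqcrh and Atp5e overlapped. Sdha had the lower side, with its values given above and a log2 change of -0.24 (95% interval -0.61 to 0.13, adjusted p = 0.614), and without the islet-rich libraries its change was 7.44e-05. Cycs had a change of 0.09 (-0.26 to 0.45, adjusted p = 0.842).

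Single libraries set much of the spread in muscle. Mutant G held the highest value of 25 of the 49 members and wild type C that of 15, while wild type A held the lowest value of 29. Relative to the wild-type mean, the median member stood at 0.15, 0.07 and 0.27 on the log2 scale in mutants D, F and G, against -0.17, -0.07 and 0.24 in wild types A, B and C. The highest wild type thus lay above mutants D and F. Leaving out 1 library at a time moved the median member between 0.08 and 0.30, and the count of called members stayed at 0.

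**Figure D3:**
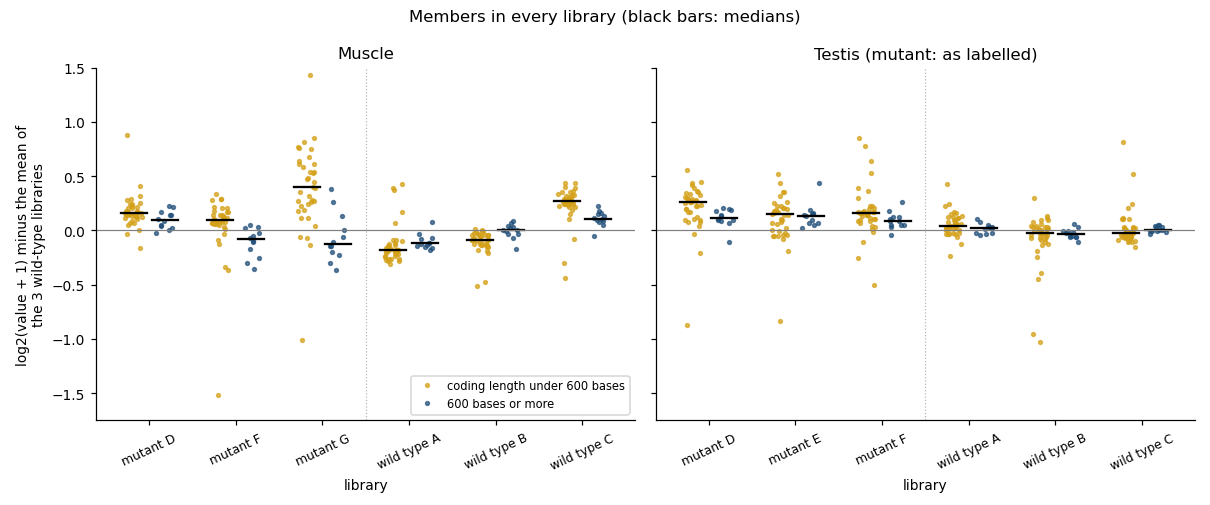
Each member in each library as log2(normalised count + 1) minus the mean of the 3 wild-type libraries of the tissue (y axis), with libraries on the x axis, muscle left and testis right, points split by coding length and bars for medians. In muscle the short members of mutant G and wild type C lie highest and the long members of mutant G lie below 0, whereas the testis libraries labelled mutant lie above 0 for both length classes.

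The muscle differences varied with the length of the coding sequence. Over the 49 members Spearman's rho between coding length and log2 change was -0.65, and over 14043 coding genes it was -0.27 (across genes, which are not independent replicates). Of the 37 members with a coding length under 600 bases, 35 lay above 0 (94.6%), against 67.0% of coding genes of that length. Of the 12 members of 600 bases or more, 4 lay above 0 (33.3%), against 41.2% of such genes. The 5 members of at least 1000 bases (Sdha, Uqcrc1, Uqcrc2, Atp5a1 and Atp5b), which are the large catalytic and core subunits, lay between -0.24 and -0.08. By library, the medians of the shorter and the longer members were 0.16 and 0.09 in mutant D, 0.10 and -0.08 in mutant F, and 0.40 and -0.12 in mutant G. They were -0.18 and -0.12 in wild type A, -0.09 and 0.00 in wild type B, and 0.27 and 0.11 in wild type C. The gap was therefore widest in mutant G. Whether RNA quality or library preparation has a part in the relation with length was not tested.

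**Figure D4:**
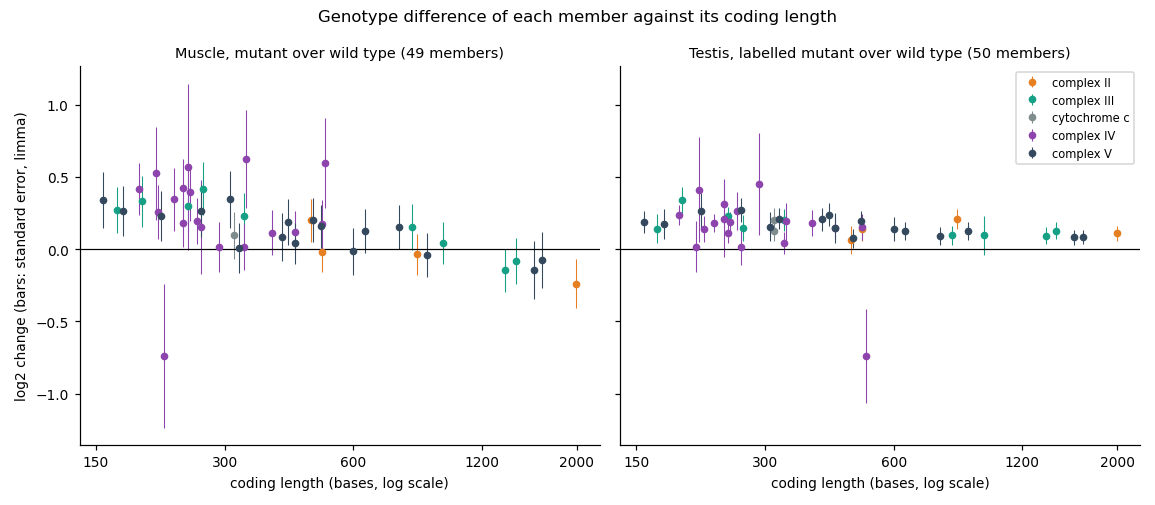
Log2 change between genotypes (y axis, bars are limma standard errors) against coding length in bases (x axis, log scale) for 49 members in muscle (left, mutant over wild type) and 50 in testis (right, labelled mutant over wild type), coloured by complex. In muscle the 5 longest members lie below 0 and most short ones above it, and in testis all members but Cox4i2 lie above 0.

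The isoform balance in muscle overlapped between the genotypes for all paralogs but Cox7a2l. Of 19 paralogs compared in each tissue, 38 comparisons in all, the smallest p that 3 against 3 libraries allow is 0.1 in the exact two-sided permutation test, so none could pass 0.05. Cox7a2l, a relative of Cox7a2, held 9.57, 10.3 and 10.4% of the family in mutant muscle, against 12.6, 11 and 11.1% in wild-type muscle. This was the sole muscle family share at that floor. Cox6a2 held 90.4, 91.1 and 76.1% of the Cox6a family in mutants D, F and G, against 86.8, 90.6 and 94.5% in wild types A, B and C (exact permutation p = 0.6). The lowest share came from mutant G.

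The Cox6a1 share of the family had the same order over the 6 muscle libraries as the summed level of 10 adipocyte markers. The share was 9.64, 8.91 and 23.9% in mutants D, F and G, against 13.2, 9.4 and 5.52% in wild types A, B and C. The adipocyte sums were 69325.9, 62505.6 and 161635 normalised counts in the same mutants, against 84267.7, 68767.8 and 28241.8 in the wild types. Cox8a and Cox7a2 are the other broadly expressed forms with a muscle isoform in their family. Cox8a had shares of 6.60, 7.55 and 11.9% in the mutants, against 9.61, 7.55 and 4.86% in the wild types. Its highest, second highest and lowest libraries, G, A and C, were those of the adipocyte sum. Cox7a2 shares, 22.4, 20.0 and 25.8% in the mutants, against 20.2, 19.2 and 20.4% in the wild types, were highest in G as well and otherwise did not keep this order. Brown fat and cold-response markers summed to 1334, 674 and 4849 in the mutants, against 2403, 1115 and 488 in the wild types. The part of fat tissue in these shares was not tested.

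**Figure D5:**
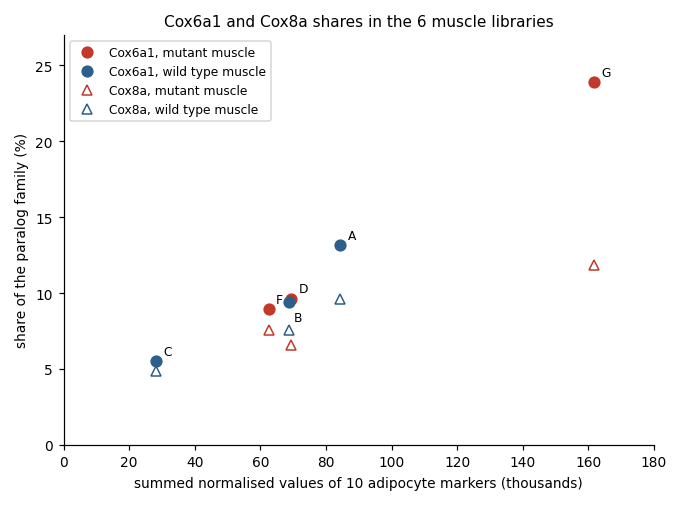
Share of Cox6a1 in the Cox6a family (filled circles) and of Cox8a in the Cox8 family (open triangles), in percent on the y axis, against the summed normalised values of 10 adipocyte markers on the x axis, in units of 1000 normalised counts,, for the 3 mutant and 3 wild-type muscle libraries. Cox6a1 runs from 5.52% in wild type C to 23.9% in mutant G in the order of the adipocyte sum.

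Marker lists of other cell types lay on both sides of 0 in muscle, and none of their genes was called between the genotypes. All 10 slow-fibre markers lay above 0, with a median of 1.61, and 8 had an unadjusted p below 0.05. Their sums were 8136, 10027 and 10923 in mutants D, F and G, against 2833, 10553 and 3744 in wild types A, B and C, so wild type B lay within the mutant range. Of the 13 fast-fibre markers 2 lay above 0, with a median of -0.15. Slow fibres are known to be richer in mitochondria, and the part of fibre type in the members' differences was not tested. The 10 adipocyte markers and the 12 islet markers lay above 0 as well, with 0 called and no marker at 0 in any muscle library. Islet sums were 14121, 33425 and 31442 in the mutants, against 16327, 14413 and 13892 in the wild types. Leaving out the islet-rich mutants F and G left 46 of the 49 members above 0 and 0 called, with mutant D alone assumed to vary like the wild types. Red blood cell markers summed to 3660 to 6057 in mutant muscle, against 2741 to 2883 in wild-type muscle, with 6 of 6 tested above 0 and 0 called, and their part in the members' differences was not tested. Pancreatic acinar markers had 10 of 10 above 0 (median 0.84), macrophage markers 6 of 7, endothelial markers 4 of 7 and brown fat markers 3 of 5. Germ cell markers lay mostly below 0: 0 of 9 elongating spermatid markers (median -0.81), 0 of 6 round spermatid markers (-0.43), 1 of 8 spermatocyte markers (-0.50) and 1 of 5 spermatogonia markers (-0.28) lay above it, as did 1 of 4 Leydig and 1 of 3 Sertoli cell markers. Neighbouring gene lists had similar counts in muscle: 33 of 38 nuclear complex I subunits lay above 0 with a median of 0.14, 9 of 13 mitochondrially encoded subunits with 0.13, and 25 of 36 assembly factors with 0.06, with 0 called in each. Of 20 regulators of mitochondrial gene expression, 4 lay above 0, with a median of -0.15 and 0 called. Among them Lrpprc, which stabilises mitochondrial mRNA, had a log2 change of -0.32 (limma, adjusted p = 0.527).

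In testis nearly all members lay slightly above 0, and again none was called. Of 50 members tested, 0 passed an adjusted p of 0.05 by limma, against 0.0205% of all 19543 genes. Of the 50, 49 lay above 0 with a median of 0.15, against 59.6% of all genes above 0 and a median of 0.03. At an unadjusted p below 0.05, 15 were higher and 1 was lower, against 7.09% of all genes (5.57% higher). The groups did not overlap for 24 members on the higher side, where 9.72% of all genes did so. They did not overlap for 1 on the lower side, where 3.67% did so. Testis labelled mutant D held the highest value of 29 of the 50 members, and wild type B the lowest of 23. Relative to the wild-type mean, the median member stood at 0.20, 0.14 and 0.14 on the log2 scale in D, E and F. It stood at 0.03, -0.03 and -0.01 in wild types A, B and C. Leaving out 1 library at a time moved the median member between 0.13 and 0.17. On the recovered reads edgeR called 0 members. At an unadjusted p below 0.05 it had 10 members higher and 1 lower, and 1011 of all 19543 genes. DESeq2 called 0 members as well, with 7 members and 626 of all 19543 genes at that p. When the scaling was set within testis, 47 of 50 lay above 0 and the median member was 0.11, with the median of all genes at -0.0012.

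Uqcrq and Uqcr10, both small subunits of complex III, had the smallest p. Uqcrq had 2008, 1813 and 1759 normalised counts in testis labelled mutant, against 1626, 1584 and 1540.0 in wild-type testis (log2 change 0.23 ± 0.0642, SE, limma, adjusted p = 0.696). Uqcr10 had 452, 383 and 428, against 358, 313 and 326 in wild type (0.34 ± 0.0951, adjusted p = 0.696), and its near-identical copy makes the count uncertain. The groups of both genes were apart. Cox7c had 892, 887 and 859 in testis labelled mutant, against 798, 704 and 741 in wild-type testis (0.24 ± 0.0707, adjusted p = 0.696). Atp5j2, the f subunit of the synthase, had 509, 457 and 497, against 409, 427 and 377 in wild type (0.27 ± 0.0855), and Sdhb, the iron-sulphur subunit of succinate dehydrogenase, had 837, 816 and 873, against 746, 695 and 744 (0.21 ± 0.0685, adjusted p = 0.696 for both). Neither gene overlapped between the groups, and Cycs, with a log2 change of 0.20 ± 0.0862 (adjusted p = 0.696), did not overlap either.

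Cox4i2 was the member on the other side. It had 12.1, 12.4 and 16 normalised counts in testis labelled mutant, against 27.4, 16.7 and 26.7 in wild-type testis, a log2 change of -0.74 ± 0.327 (limma, adjusted p = 0.698). The groups were apart by less than 1 normalised count, and the counts were low. Its share of the Cox4 family was 1.03% ± 0.179 in testis labelled mutant and 1.96% ± 0.373 in wild-type testis (SD, n = 3, exact permutation p = 0.1, the smallest that 3 against 3 libraries allow). The testis isoforms differed little: the log2 change was 0.14 for Cox8c, 0.13 for Cyct, 0.11 for Cox7b2 and 0.01 for Cox6b2, with adjusted p-values from 0.747 to 0.989. Unlike in muscle, all 12 members of 600 coding bases or more lay above 0, against 58.4% of coding genes of that length. Of the 38 shorter members 37 did so, against 73.5% of such genes. A relation with coding length was present in testis too. Spearman's rho was -0.49 over the 50 members and -0.23 over 15415 coding genes. The median log2 change was 0.18 for the shorter members and 0.10 for the longer ones.

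Most genes of the neighbouring lists lay above 0 in testis as well. All 39 nuclear complex I subunits lay above 0 with a median of 0.18, 30 of 36 assembly factors with 0.13, 10 of 11 mitochondrially encoded subunits with 0.10, and 11 of 20 regulators with 0.00. None of these genes was called. Uqcc2, an assembly factor of complex III, had a log2 change of 0.25 (limma, adjusted p = 0.645). Among marker lists of other cells, the fast-fibre markers lay farthest from 0: 13 of 13 lay above it with a median of 2.20, 7 of them at an unadjusted p below 0.05 and 0 called. Their sums were 14761 to 16373 normalised counts in testis labelled mutant, against 381 to 16607 in wild-type testis, so wild type C lay above every library labelled mutant. Without wild type B, the lowest of them, 46 of the 50 members lay above 0 with a median of 0.14. All 9 elongating spermatid markers lay above 0 with a median of 0.09, as did 8 of 8 round spermatid (0.07), 9 of 10 spermatocyte (0.11), 5 of 8 spermatogonia, 6 of 7 Leydig cell (0.14), 6 of 8 Sertoli cell and 4 of 4 red blood cell markers (0.21). Above 0 were also 5 of 9 adipocyte, 6 of 12 pancreatic acinar, 3 of 7 macrophage, 2 of 11 islet, 1 of 8 slow-fibre, 1 of 7 endothelial and 0 of 3 brown fat markers, and no marker was called. Elongating spermatid markers summed to 256352 to 264299 normalised counts in testis labelled mutant, against 230930 to 250332 in wild-type testis, and islet markers to 11749 to 14256, against 10924 to 20071. The part of such shifts in cell makeup in the members' differences was not tested.

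Whether the genotype difference itself differed between the tissues was tested as an interaction over 14677 genes, of which 0.0136% were called, and 0 of 49 members were. At an unadjusted p below 0.05 there were 2 members, Cox4i2, with a difference of 1.33 ± 0.421 on the log2 scale (limma, adjusted p = 0.562), and Sdha, with -0.35 ± 0.155 (adjusted p = 0.574), against 8.69% of all genes. Both edgeR and DESeq2 called 0 members, with 1 and 2 at an unadjusted p below 0.05. Of all 14677 genes, 1176 and 1352 had such a p. Cox4i2 had 58.2, 32.6 and 57.0 normalised counts in mutant muscle, against 35.3, 29.2 and 29.5 in wild-type muscle, so it lay higher there on average while it lay lower in testis labelled mutant. Without muscle of mutant D, 2 members were called lower, Sdha (-0.47, adjusted p = 0.0380) and Cox8c (-1.40, adjusted p = 0.0199), and 951 genes were called in all, so these calls rest on which libraries are kept. The median difference of the members was -0.03, against -0.08 for all genes, and 21 members lay above 0, or 33 under TMM scaling. Other members with the smallest p in their complexes were Uqcrc2 (-0.24), Atp5b (-0.23) and Cycs (-0.10), with adjusted p-values of 0.612, 0.688 and 0.843.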

How the data were processed

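Poly(A) libraries of 12 samples were sequenced as paired reads of 150 bases from RNA with an RQN above 7.2, extracted from about 20 mg of tissue powder, per the labels' protocols. DESeq2 1.46.0, HTSeq 0.11.2, Picard 1.119, HISAT2 2.1.0, fastp 0.23.4 and the build GRCm38.p4 are listed in the submitters' processing notes, and strand setting and annotation are not given in the sources used here. The authors deposited a table of normalised counts (a signal scaled by size factors over all 12 libraries, not divided by length) for 47730 features, and a table of rlog values on the log2 scale for 27384. Column names give tissue, genotype and mouse, and groups follow from these. In 1 testis library 26 genes held dates in place of values, none a member, and were left out of fits with testis.

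The normalised values were whole multiples of 1 read in 100% of cases (tolerance 0.001), so reads could be recovered, and their totals are the depth given. Poly(A) selection and whole-tissue extracts bear on every value, and precision is limited by 3 libraries a group. limma 3.58.1 (R 4.3.3, trend, two-sided) was fitted to log2(value + 1) of every gene with a value of at least 10 in at least 3 libraries of the comparison, with Benjamini-Hochberg adjustment over all of them and calls at 0.05. As written in advance, limma was kept for these normalised values. edgeR 4.0.16 (quasi-likelihood) and DESeq2 1.42.0 on recovered reads, other scalings, pseudocounts of 0.5 and 8, filters, a mouse block between tissues and each library left out were alternatives. The fits were tested on simulated data. Islet-rich libraries are those whose summed islet markers exceed 1.25 times their tissue's median. Copies were searched with BLAST 2.17.0+.

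The members and lists were chosen with earlier results of these data known. Named in full were the paralog families and, per complex, the called member with the largest rise and fall or, with none called, that with the smallest p. From other lists the 2 members with the smallest p could be named. Sdha, Uqcrq, Uqcr10, Atp5b, Cox6c2, Mir688, Itgad and 4930481A15Rik were in addition named where a limit or a tissue value turned on them.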

Additional observations from a re-analysis of the deposited data

Results flagged for a closer look

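Sdha, Sdhb and Cox4i2 were flagged by the side of the wild-type mean normalised count on which the mutant libraries lay. Within each tissue all mutant libraries lay on the same side, and the sides of muscle and testis were opposite. The share of all genes that meet this rule is not given here. For Sdha the rule holds for the mean of the counts and not on the log2 scale. There muscle of mutant D lay 7.44e-05 above the wild-type mean. The difference of the genotype effect, muscle minus testis, was 1.33 for Cox4i2, -0.347 for Sdha and -0.244 for Sdhb on the log2 scale. The interaction test in limma gave Benjamini-Hochberg adjusted p-values of 0.562, 0.574 and 0.590, so none was called.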

How the results depend on the processing

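No member was called between genotypes in muscle or in testis under any of 18 alternatives each, while the genes called in all ran from 3 to 497 in muscle (28 with all 12 libraries in 1 model, 36 in DESeq2, 14 with no filter, and 497 without mutant D, against 6) and from 0 to 10 in testis (against 4). The difference between tissues gave 0 members, and 0 to 2 with 1 library left out, with 1 to 951 genes called. Members called between tissues numbered 45 to 48 in the wild-type pair and 48 to 50 in the mutant pair, where edgeR added Cox6a1 (0.84, adjusted p = 0.0416). Cyct was not tested with a testis library left out, nor Cox4i2 in the mutant pair at a mean of at least 50. Directions turned for Sdha in muscle without the islet-rich libraries (7.44e-05) and for Cox6a1 between wild-type tissues with 1 library left out (-0.13 to 0.30). The causes were not tested.

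No paired analysis was possible between the genotypes, which are compared between different mice. The mouse given in the column names pairs the tissues, and the main fits between tissues did not use this pairing. With a replicate block for the mouse between tissues, 48 members were called in the wild-type pair, 49 in the mutant pair and 0 in the difference.

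Shares depend on the length used. Undivided by length, wild-type muscle gave 99.7% for Cox4i1, 99.2% for Cox6b1, 50.5% for Cox7a1, 99.7% for Cox7b, 87.5% for Cox8b, 99.9% for Cycs and 42.6% for Atp5g3. Undivided, wild-type testis gave 99.0% for Cox4i1, 92.0% for Cox6b2, 65.4% for Cox7a2, 94.1% for Cox7b2, 92.1% for Cox8c, 59.2% for Cyct and 43.4% for Atp5g3. With the length of the principal transcript, added after seeing the data, wild-type muscle gave 99.7% for Cox4i1, 99.1% for Cox6b1 and 56.5% for Atp5g3, and wild-type testis gave 99.0% for Cox4i1, 93.0% for Cox6b2, 72.9% for Cox7a2, 96.7% for Cox7b2 and 58.2% for Atp5g3. With 3 libraries a group, low-count members such as Cox4i2 and the isoforms of the other tissue are the least precise.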
